A study of Mus musculus with 2 samples.

Results

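Granzyme-high cytotoxic CD8 T cells were chosen cell by cell from a fixed rule on unique molecular identifiers (UMIs), each of which counts 1 captured transcript. Cells with under 200 genes or over 20% mitochondrial UMIs were left out. A CD8 T cell needed at least 1 UMI of Cd8a or Cd8b1, at least 1 UMI of Cd3d, Cd3e or Cd3g, no UMI of Cd4, Foxp3, Xcr1 or Clec9a, and at most 1 UMI of C1qa, C1qb and C1qc together. Cells that met these limits are called CD8 T cells here, and those with at least 3 UMIs of Gzmb, Gzmc, Gzmf and Prf1 together are the granzyme-high members. There were 550 members among 7547 kept cells of the library labelled Lcn2-ko and 433 among 7712 kept cells of the wt library, 983 of 15259 in all. The remaining 714 and 512 CD8 T cells, with at most 2 such UMIs, are called granzyme-low.

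Live CD45+ cells were sorted from tumours of MB49, a mouse bladder cancer line, and captured in the microwells of the BD Rhapsody system for whole-transcriptome UMI counting. The group labelled Lcn2-ko came from lethally irradiated female mice reconstituted with male Lcn2-KO marrow, and the group labelled wt from lethally irradiated female mice reconstituted with male WT marrow. Each group was 1 library, and the number of animals behind a library, their age, their strain and the exons deleted in Lcn2 are not given in the sources used here. Donor-derived T cells carry the donor genotype in such chimeras, so the deletion was not limited to myeloid cells, and T cells that survive irradiation keep the host genotype.

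Cytotoxic CD8 T cells recognise peptides on MHC class I and kill by releasing granules that hold perforin, which opens the target membrane, and granzymes, the serine proteases that enter through it and trigger cell death. In the mouse, Gzmb lies in a cluster with Gzmc, Gzmd, Gzme, Gzmf, Gzmg and Gzmn, while Gzma and Gzmk lie elsewhere. In tumours such cells often carry inhibitory receptors such as PD-1, encoded by Pdcd1, and TIM-3, encoded by Havcr2.

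Levels are CPM, the UMIs of a gene in a class of cells after that class was scaled to a total of 1000000 UMIs. With 1 library per genotype there was no replicate check and no difference was tested. The 95% intervals cover counting error only, within a library, and say nothing of the spread between animals. Those of log2 ratios treat each UMI as independent and also leave out the spread between cells. They are too narrow where a few cells hold many of a gene's UMIs. Lcn2 itself was listed in 329 of 7547 kept cells (4.36%) labelled Lcn2-ko and in 353 of 7712 (4.58%) labelled wt. In cells with at least 5 UMIs of the neutrophil genes S100a8 and S100a9 it was in 42 of 382 (11%, 51.2 CPM) labelled Lcn2-ko and 164 of 668 (24.6%, 103 CPM) labelled wt, lower in the direction of the label but not absent. The label is used here as given, and 3' counts may lie outside the deleted exons. Among the members, Lcn2 had 4 UMIs in 2 Lcn2-ko cells and 0 UMIs in 433 wt cells, which allows a share of cells with a UMI of up to 0.693% and sets no limit on cells that express the gene. Members had a median of 3354 UMIs and 1568.5 genes in the Lcn2-ko library and 3147 UMIs and 1509 genes in the wt library, and their summed UMIs were 2248716 and 1631600.

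The label was checked against the genes that define CD8 T cells and against those of neighbouring cell types. Cd8a, the CD8 alpha chain, was detected in 94.9% of Lcn2-ko members and 95.2% of wt members, against 3.26% and 3.90% of C1q macrophages, a class that should lack it and that was deeper, with medians of 5804 and 6705 UMIs. Cd8b1, the beta chain of the conventional CD8 co-receptor, was detected in 78.0% of Lcn2-ko members (exact interval 74.3 to 81.4) and 67.2% of wt members (62.6 to 71.6), or 42.6% and 39.8% of cells thinned to 1000 UMIs. Trdc, the gamma delta receptor constant gene, was detected in 5 Lcn2-ko and 8 wt members (0.909% and 1.85%). The list of 6 gamma delta and innate-like T cell markers, Trdc among them, had a UMI in 235 Lcn2-ko and 218 wt members. It summed to 260.1 and 361 CPM in the members, against 165 and 209 CPM in granzyme-low cells. Ncr1, the NK cell receptor NKp46, was detected in 1.45% and 1.62% of members, against 65.5% and 75.5% of NK cells, taken here as cells with no CD3 UMI and at least 2 UMIs of Ncr1 or Klrb1c. The list of 7 NK cell markers, Ncr1 among them, had a UMI in 241 Lcn2-ko and 212 wt members. That list summed to 2017 and 1647 CPM in the members, against 177 and 174 CPM in granzyme-low cells. Gzma, described below, made up most of the members' sums. Of the 5 genes that mark these cells in the series, Gzmf, Prf1 and Pdcd1 were not general to the members. Gzmf was detected in 13.5% of Lcn2-ko and 4.16% of wt members, Prf1 in 44.2% and 29.6%, and Pdcd1 in 54.0% and 37.4%.

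Some barcodes also held transcripts of other cells. Barcodes with at least 10 UMIs of 35 marker genes of other classes are called mixed here, and they were 38 of 550 Lcn2-ko members (6.91%) and 26 of 433 wt members (6.0%), against 11.2% and 11.1% of granzyme-low cells. In the members, 8 of 8 macrophage markers had UMIs, with sums of 227 CPM in the Lcn2-ko library and 169 CPM in the wt library. The mast cell and basophil markers summed to 15.6 CPM in Lcn2-ko members, where Ms4a2 was at 0, and to 313 CPM in wt members, where 479 of 510 UMIs were in mixed barcodes. Dendritic cell markers summed to 596 and 333 CPM, with Xcr1 and Clec9a at 0 by the rule, and neutrophil markers to 29.4 and 63.1 CPM. Tumour cell and fibroblast markers summed to most, 2936 and 3077 CPM, with a UMI in 535 Lcn2-ko and 421 wt members. Mixed barcodes held 1899 of 6602 Lcn2-ko and 1775 of 5021 wt UMIs of these markers, so most remained without them. S100a6 is in that list but not among the 35 genes, and its part in the sums was not tested. Jchain, an immunoglobulin joining chain gene, and the haemoglobin genes were at 0 in both. Values without mixed barcodes are given beside the counts, list medians and genes they move most.

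The genes that set the rule lie on 2 chromosomes. In the mm10 annotation (GENCODE), the cluster runs on the minus strand of chromosome 14 from Gzme (56117626 to 56120625) through Gzmd (56129556 to 56132608), Gzmg (56156582 to 56159579), Gzmn (56165797 to 56174599), Gzmf (56205263 to 56211417) and Gzmc (56231441 to 56234656) to Gzmb (56258838 to 56262260). Prf1, which encodes perforin, lies on the plus strand of chromosome 10 from 61297833 to 61304680. The promoter windows of Gzmb, Gzmc and Gzmf are shown because the 3 genes lie side by side and yet behaved differently in the members. They are RefSeq sequences on GRCm38.p6, each covering 250 bases before to 50 bases after the RefSeq gene start, at chr14:56262285-56262584, chr14:56234608-56234907 and chr14:56211358-56211657, all on the minus strand. RefSeq and GENCODE place the start of Gzmb differently. The GENCODE start of Gzmb, 56262260, lies downstream of its window, so the Gzmb window and its motif positions hold for the RefSeq start only. Capitals mark 3 searched motifs on either strand: the Runx core TGTGGT, the cyclic AMP response element TGACGTCA and the AP-1 site TGANTCA.
Gzmb promoter: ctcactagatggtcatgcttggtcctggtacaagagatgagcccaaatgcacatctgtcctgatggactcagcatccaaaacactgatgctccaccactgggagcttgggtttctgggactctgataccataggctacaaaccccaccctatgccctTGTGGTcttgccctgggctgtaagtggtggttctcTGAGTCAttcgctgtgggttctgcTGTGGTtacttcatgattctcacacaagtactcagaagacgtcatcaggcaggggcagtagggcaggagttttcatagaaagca
Gzmc promoter: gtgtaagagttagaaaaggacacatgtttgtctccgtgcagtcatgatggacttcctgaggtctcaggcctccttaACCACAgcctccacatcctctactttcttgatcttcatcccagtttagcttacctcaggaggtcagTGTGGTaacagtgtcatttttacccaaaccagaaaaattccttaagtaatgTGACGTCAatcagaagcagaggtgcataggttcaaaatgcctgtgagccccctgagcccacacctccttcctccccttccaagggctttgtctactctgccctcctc
Gzmf promoter: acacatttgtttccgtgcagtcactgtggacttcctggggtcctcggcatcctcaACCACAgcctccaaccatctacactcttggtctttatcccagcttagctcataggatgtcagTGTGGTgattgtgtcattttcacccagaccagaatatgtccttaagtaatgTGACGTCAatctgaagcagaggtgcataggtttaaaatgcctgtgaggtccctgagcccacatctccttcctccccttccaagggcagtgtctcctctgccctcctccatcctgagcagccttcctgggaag
The Runx core was found in the windows of Gzmb (at -93 and -34 from the RefSeq gene start), Gzmc (-174 and -108) and Gzmf (-195 and -133), and in 16.8% of 32851 promoter windows of the same length. The cyclic AMP response element was found in the windows of Gzmc (-57) and Gzmf (-82) but not of Gzmb, and in 1.79% of all windows. The AP-1 site was found in the Gzmb window (-58) and in 7.81% of all windows. The searched motifs do not overlap one another in these windows. The Gzmc and Gzmf windows were 74.9% identical, while the Gzmb window was 46.5% identical to that of Gzmc and 50.2% to that of Gzmf. These matches describe letters only.

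Because 3' reads of near-identical genes can be split between them, the last 300 bases of the transcripts were compared as well. Gzmd, Gzme and Gzmf were 84% to 85% identical to one another there. Gzmc and Gzmf were 49.4% identical and Gzmb and Gzmc 46.2%. Values of Gzmd, Gzme and Gzmf are therefore less certain than those of Gzmb and Gzmc.

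The rule genes were unevenly shared out among the members, which is a description of how the cells were chosen. The members held 10589 rule UMIs in the Lcn2-ko library and 5747 in the wt library, with a median of 9 and 7 per cell, an upper quartile of 20 and 15 and a maximum of 337 and 193. The 55 and 44 cells with the most rule UMIs held 46.8% and 39.4% of these UMIs. Just inside the limit, 68 Lcn2-ko and 58 wt members had exactly 3 UMIs, and just outside it 123 and 66 CD8 T cells had exactly 2. Gzmb carried the rule in both libraries, with 77.9% of the rule UMIs in Lcn2-ko members and 89.6% in wt members, and was detected in 97.1% and 98.2% of members.

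Gzmf, a granzyme gene inside the cluster, was the rule gene that differed most between the libraries. It had 1147 UMIs in 74 of 550 Lcn2-ko members and 137 UMIs in 18 of 433 wt members. That was 10.8% of the rule UMIs in the Lcn2-ko library and 2.38% in the wt library. A few cells held much of it, the highest single cell having 156 UMIs in the Lcn2-ko library and 58 in the wt library. On the CPM scale Gzmf stood at 510.1 in Lcn2-ko members and 84.0 in wt members, a log2 ratio of 2.60 (95% counting interval 2.35 to 2.87), and 2.59 without mixed barcodes. It was detected in 2.33% and 0.488% of C1q macrophages, and with each cell thinned to 1000 UMIs, which leaves out 1 member per library, in 8.93% of Lcn2-ko and 2.55% of wt members.

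Gzmc, another granzyme of the cluster, had 433 UMIs in 16.2% of Lcn2-ko members and 133 UMIs in 11.8% of wt members, with a log2 ratio of 1.24 (0.96 to 1.53). Prf1 had 757 UMIs in 44.2% and 325 UMIs in 29.6% of members, with a log2 ratio of 0.76 (0.57 to 0.95). Thinned to 1000 UMIs, Gzmc was in 7.65% and 4.17% and Prf1 in 19.7% and 12.5% of members. Both were rarer in the deeper C1q macrophages, Prf1 at 2.79% and 1.46% and Gzmc at 1.40% and 0.976%. Gzmb differed by less, at 3669.6 CPM in Lcn2-ko members and 3158 CPM in wt members, a log2 ratio of 0.22 (0.17 to 0.27). Gzmd stood at 127 and 124 CPM (log2 ratio 0.03, -0.24 to 0.29) although it lies between Gzme and Gzmf and resembles both. Since Gzmb, Gzmc, Gzmf and Prf1 decided which cells were members, their levels in the members are descriptions.

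Gzma, a granzyme of chromosome 13 that the rule did not use, was as unevenly spread. It stood at 1890.4 CPM in Lcn2-ko members and 1497 CPM in wt members, but was detected in 27.1% and 26.3% of them, against 71.4% and 59.5% of NK cells and 7.91% and 5.85% of C1q macrophages. Among granzyme-low cells it stood at 106 and 73.5 CPM, in 9.94% and 6.05% of cells. Gzmk, the granzyme often seen in less differentiated effector cells, stood at 61.8 CPM in Lcn2-ko and 58.8 CPM in wt members and at 43.9 and 39.2 CPM in granzyme-low cells. Gzmn was at 0, and Gzmg had 4 Lcn2-ko UMIs and 0 wt UMIs. NK cells, for comparison, held more Gzmc, at 1104 and 1589 CPM against 193 and 81.5 CPM in the members, while Gzmf was detected in 3.88% and 1.84% of NK cells.

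**Figure D1:**
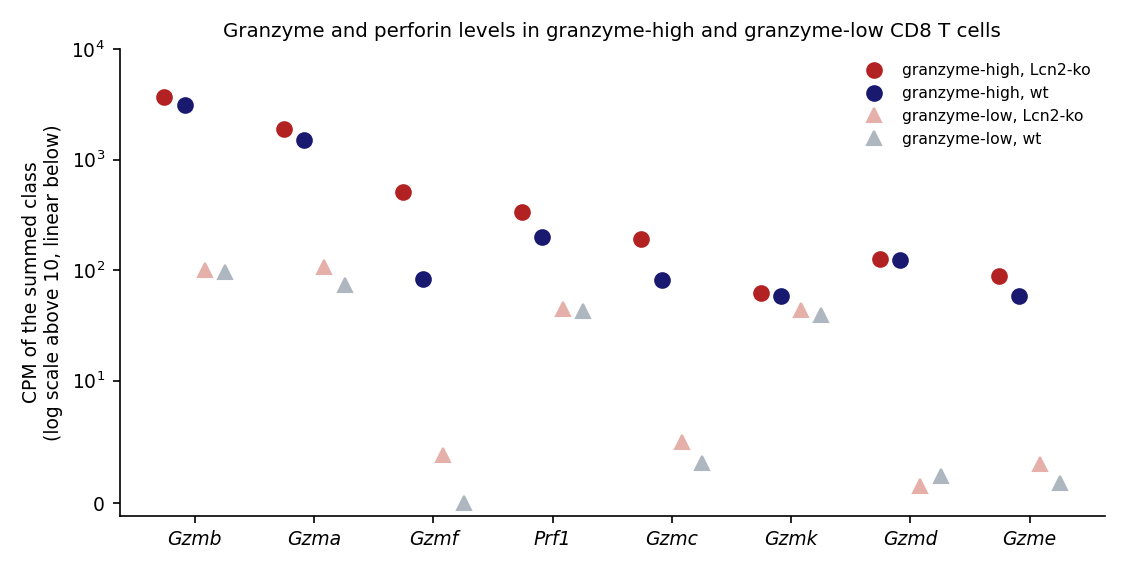
CPM of 8 granule genes (log scale above 10, linear below) in granzyme-high members (circles) and granzyme-low CD8 T cells (triangles) of the library labelled Lcn2-ko (red) and the wt library (dark blue), 1 library each. Gzmb lies at 3669.6 and 3158 CPM in the members, Gzmf at 510.1 and 84.0, and Gzmk differs least between granzyme-high and granzyme-low cells.

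Genes outside the rule differed along the number of granzyme and perforin UMIs per cell in both libraries, not always stratum by stratum. The CD8 T cells were split by that number into 0, 1, 2, 3, 4 to 11, 12 to 29 and at least 30 UMIs. Gzma stood at 63.1, 116, 252, 254, 935, 2164 and 4401 CPM over these strata in the Lcn2-ko library and at 48.3, 132, 65.7, 289, 873, 2239 and 3680.4 CPM in the wt library. Tcf7, a transcription factor of naive and stem-like T cells, went the other way, at 119.5 CPM in Lcn2-ko cells with 0 UMIs and 13.2 CPM in those with at least 30. In the wt library Tcf7 was at 178 CPM with 0 UMIs and 25.7 CPM with at least 30. The strata with at least 30 UMIs held 85 and 39 cells with median depths of 4436 and 4231 UMIs, above the members' medians, so depth moved with the strata and its part was not tested.

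Fcer1g, the signalling chain shared by Fc and NK receptors, stood at 172 CPM in Lcn2-ko cells with 0 UMIs and 578 CPM in those with at least 30, and at 230.5 and 703 CPM in the wt library. Havcr2 stood at 51.0 and 224 CPM in the Lcn2-ko library and at 33.7 and 179.7 CPM in the wt library. Tox, a regulator of T cell exhaustion, was lower at the top, at 178 CPM with 0 and 68.1 CPM with at least 30 UMIs in the Lcn2-ko library and at 159 and 92.4 CPM in the wt library. Itgae, the integrin chain CD103 of resident T cells, peaked below the top, at 246 CPM with 12 to 29 UMIs and 169 CPM with at least 30 in the Lcn2-ko library, and at 393 and 272 CPM in the wt library. Pdcd1 was highest in the top stratum, at 376 CPM with 0 and 617 CPM with at least 30 UMIs in the Lcn2-ko library, and at 239.6 and 447 CPM in the wt library.

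**Figure D2:**
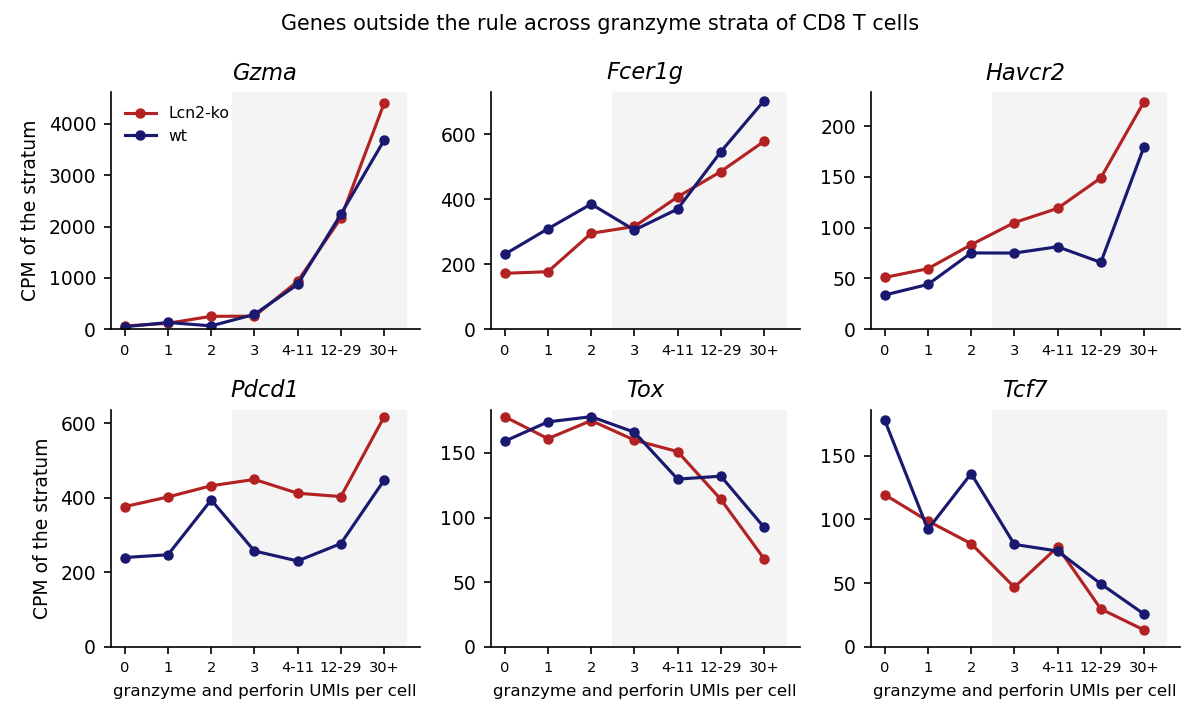
CPM of 6 genes outside the rule over strata of granzyme and perforin UMIs per cell in CD8 T cells, Lcn2-ko library in red and wt library in dark blue, with the members' strata on grey. Gzma, Fcer1g and Havcr2 end highest in the stratum with at least 30 UMIs, where Gzma stands at 4401 and 3680.4 CPM, while Tox and Tcf7 end lowest.

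The members were not of 1 kind. Of Lcn2-ko members with a Gzmf UMI, 85.1% also had a Pdcd1 UMI, against 49.2% of those without, and of wt members 77.8% and 35.7%. Gzmc was detected in 37 of 74 Lcn2-ko members with Gzmf and 10.9% of those without, and in 38.9% and 10.6% of wt members. Members with Gzmf were deeper, with medians of 4361 against 3217.5 UMIs in the Lcn2-ko library and 4554.5 against 3106 in the wt library. With cells thinned to 1000 UMIs the Pdcd1 shares were 44.9% and 26.6% in the Lcn2-ko library and 63.6% (of 11 cells) and 19.7% in the wt library, and the Gzmc shares 32.7% and 5.2%, and 27.3% and 3.56%. Gzma was in 23.0% and 27.7% of Lcn2-ko members with and without Gzmf, and in 6 of 18 and 26.0% of wt members. It was more frequent with Gzmk, at 51.1% and 22.4% of Lcn2-ko members and 50.8% and 22.0% of wt members with and without Gzmk.

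Fcer1g was detected in 208 Lcn2-ko and 150 wt members, a set that overlapped the members with Gzmf in the Lcn2-ko library. There Fcer1g was in 37.8% of members with Gzmf and 37.8% of those without. In the wt library it was in 1 of 18 and 35.9%. Klrb1c, the NK receptor NK1.1, was detected in 31.2% of Lcn2-ko members with Fcer1g and 2.63% of those without, and in 36% and 1.77% of wt members. Cd8b1 was the reverse, at 59.1% and 89.5% in the Lcn2-ko library and 36.7% and 83.4% in the wt library, although members with Fcer1g were the deeper ones (medians 3910.5 and 3039.5 UMIs, and 3862 and 2828). Pdcd1 was detected in 43.8% and 60.2% of Lcn2-ko members with and without Fcer1g, and in 22.0% and 45.6% of wt members. Thinned to 1000 UMIs, Klrb1c was in 16.8% and 1.65% of Lcn2-ko members and 20.7% and 1.76% of wt members, and Cd8b1 in 24.8% and 47.9%, and 13% and 47.1%. Without mixed barcodes Klrb1c stood at 33.2% and 2.74% and Cd8b1 at 57.6% and 89.3% in the Lcn2-ko library. Fcer1g UMIs were also in 96.7% and 96.1% of C1q macrophages, and the part of their free RNA in these pairs was not tested. Havcr2 went with Pdcd1, at 46.1% and 19.8% of Lcn2-ko members with and without Pdcd1 and 38.9% and 11.1% of wt members, but thinned at 16.1% and 11.2%, and 16.7% and 6.73%. Tcf7 and Pdcd1 met less often, 29.9% of Lcn2-ko and 9.09% of wt members with Tcf7 also having Pdcd1, against 57.3% and 42.5% of those without Tcf7, and thinned too few cells had Tcf7 (20 and 22) to tell.

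T cell receptor segments could not describe clones, since all Trav and Trbv segments together had 41 UMIs in Lcn2-ko members and 27 in wt members. Mitotic cells, with at least 2 UMIs of 10 mitotic genes, were 28.0% of Lcn2-ko members and 25.4% of wt members (difference 2.60 points, -3.01 to 8.09), and 26.2% and 23.8% of granzyme-low cells.

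Set against granzyme-low CD8 T cells of the same library, some NK receptor and a few tissue residence genes were higher in the members, and some genes of naive and memory cells were lower. These contrasts follow the rule's own split, so they are described and not tested. A gene counted as past 2-fold among the 3518 that had at least 50 CPM in either class and 50 UMIs over both. In Lcn2-ko members 14 (0.398%) were higher by that measure and 122 (3.47%) lower. In the wt library 17 of 3525 (0.482%) were higher and 46 (1.3%) lower. Most of the lower genes rested on mixed barcodes, which were more frequent among granzyme-low cells: without them 11 were higher and 6 lower in the Lcn2-ko library, 10 and 4 of them on both counts, and 17 were higher and 12 lower in the wt library, 8 and 7 on both counts. The wt genes past 2-fold higher include mast cell genes such as Cpa3, which the mixed barcodes hold. Genes of epithelial and stromal cells were among those that came near 0, such as the keratin Krt18 (-2.28 with and 0.39 without mixed barcodes in the Lcn2-ko library) and calponin Cnn3 (-2.07 and 0.25).

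For gene lists a 1.5-fold limit was used on genes with at least 20 CPM and 20 UMIs. Over all such genes 153 of 6447 (2.37%) were higher and 591 (9.17%) lower in the Lcn2-ko library, and 231 of 6467 (3.57%) and 454 (7.02%) in the wt library. Of NK receptor genes, 7 of 14 measured were higher and 0 lower in the Lcn2-ko library (median log2 ratio 0.66, and 0.45 without mixed barcodes) and 7 of 15 higher and 1 lower in the wt library (0.47 and 0.93). Klra5, a Ly49 lectin receptor gene, stood at 102 CPM in Lcn2-ko members and 16.5 CPM in Lcn2-ko granzyme-low cells, and at 69.9 and 19.3 CPM in the wt library. Klrb1c stood at 62.7 and 15.1 CPM in the Lcn2-ko library and at 65.0 and 21.0 CPM in the wt library. Cd7, a surface molecule of T and NK cells, stood at 439 and 145 CPM in the Lcn2-ko library and at 631 and 265 CPM in the wt library. All 3 were higher in the members of both libraries, with log2 ratios of 2.63 and 1.85 for Klra5, 2.05 and 1.63 for Klrb1c and 1.60 and 1.25 for Cd7.

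The cell-surface pattern was not that of NK cells as a whole. Fcer1g stood at 452 CPM in Lcn2-ko members and 193 CPM in granzyme-low cells, and at 448 and 270.2 CPM in the wt library, with log2 ratios of 1.23 and 0.73 that were 1.49 and 1.04 without mixed barcodes. In NK cells it stood at 1743 and 1686 CPM. Klra5 was the opposite case, at 16.8 and 6.66 CPM in NK cells, below the members. Klrh1, a lectin-like receptor gene, was lower in the members, at 60.5 against 79.5 CPM in the Lcn2-ko library and 26.4 against 62.4 CPM in the wt library.

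Of tissue residence genes, 3 of 10 were higher in the Lcn2-ko library and 2 of 10 in the wt library, with 0 lower in either. The list medians were 0.39 and 0.20, and 0.15 and 0.09 without mixed barcodes. Itgae stood at 166 CPM in Lcn2-ko members and 62.6 CPM in granzyme-low cells, and at 246 and 95.6 CPM in the wt library. Its log2 ratios were 1.41 and 1.36, and 1.19 and 1.20 without mixed barcodes. Itga1, the collagen-binding integrin chain CD49a, had log2 ratios of 0.83 and 0.85.

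Of inhibitory receptors, 4 of 13 were higher in the Lcn2-ko library and 2 of 14 in the wt library, with 0 lower. Their medians were 0.32 and 0.27, and 0.06 and 0.18 without mixed barcodes. Havcr2 stood at 147 CPM in Lcn2-ko members and 58.3 CPM in granzyme-low cells, and at 88.3 and 41.4 CPM in the wt library, log2 ratios of 1.33 and 1.09. Pdcd1, by contrast, stood at 455 CPM in Lcn2-ko members and 392 CPM in granzyme-low cells, and at 272 and 259.7 CPM in the wt library. Its log2 ratios of 0.22 and 0.06 were -0.05 and -0.08 without mixed barcodes, so Pdcd1 levels were close in granzyme-high and other CD8 T cells of a library. Of exhaustion regulators, 1 of 13 was higher in the Lcn2-ko library and 0 of 13 in the wt library, and Tox had log2 ratios of -0.47 and -0.35.

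Of naive, memory and stem-like genes, 5 of 13 were lower in the Lcn2-ko library and 7 of 13 in the wt library, with 0 higher (medians -0.48 and -0.61, and -0.65 and -0.79 without mixed barcodes). Ccr7, the lymph node homing receptor, stood at 37.8 CPM in Lcn2-ko members and 112 CPM in granzyme-low cells, and at 18.4 and 108 CPM in the wt library. Tcf7 stood at 48.5 and 108 CPM in the Lcn2-ko library and at 63.1 and 149 CPM in the wt library. Slamf6, a receptor of stem-like CD8 T cells, had 8 UMIs against 47 in the Lcn2-ko library and 9 against 30 in the wt library, with log2 ratios of -2.25 and -1.59. S1pr1, the egress receptor, had log2 ratios of -0.97 and -0.67. In the cytotoxic granule list 8 of 19 genes were higher in each library, but 6 of them are the rule genes and their cluster neighbours Gzmd and Gzme; the others were Gzma and Serpinb9, the granzyme B inhibitor, at 554 against 310.3 CPM in the Lcn2-ko library and 360.4 against 239 CPM in the wt library.

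**Figure D3:**
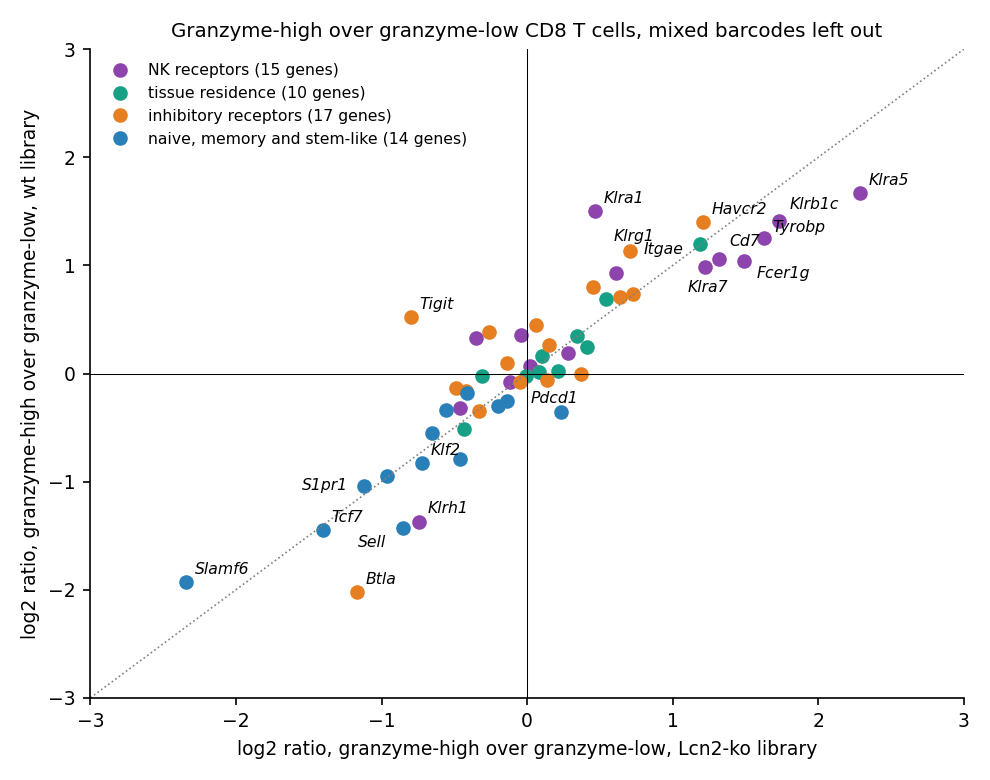
Log2 ratio of granzyme-high over granzyme-low CD8 T cells in the library labelled Lcn2-ko (horizontal) and the wt library (vertical), mixed barcodes left out, for genes with at least 20 UMIs in both comparisons. Each point is 1 gene and the dotted line marks equal ratios. NK receptors such as Klra5 (2.29 and 1.67) lie at the upper right, Tcf7 (-1.40 and -1.45) and Slamf6 at the lower left, and Pdcd1 near 0.

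The question between the libraries was whether the granzyme-high cells of the library labelled Lcn2-ko differed from those of the wt library. By number they made up 43.5% of Lcn2-ko CD8 T cells (interval 40.8 to 46.3) and 45.8% of wt CD8 T cells (42.6 to 49.1), a difference of -2.31 points (-6.49 to 1.88) whose interval includes 0. As a share of all kept cells they were 7.29% and 5.61%, since CD8 T cells were 16.7% of kept cells in the Lcn2-ko library and 12.3% in the wt library. Shares of sorted CD45+ cells depend on every other class in the sort.

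By the same limits, 3433 genes could be compared, and 6 (0.175%) were past 2-fold higher and 18 (0.524%) past 2-fold lower in Lcn2-ko members. Without mixed barcodes the numbers were 6 and 14 of 3396, and 3 and 7 genes were on both counts. The rule genes that chose the members, Gzmf and Gzmc among them, are left out of these numbers. At the 1.5-fold limit used for lists, 189 of 6313 genes (2.99%) were higher and 315 (4.99%) lower.

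The 3 higher genes on both counts were Serpinb9b, Klrh1 and Creb3l2. Serpinb9b, a close relative of the granzyme B inhibitor gene Serpinb9, stood at 56.9 CPM in Lcn2-ko members and 23.3 CPM in wt members, a log2 ratio of 1.29 (0.76 to 1.85), and was detected in 3.82% and 2.54% of members. Klrh1 stood at 60.5 and 26.4 CPM (1.20, 0.69 to 1.73). Creb3l2, a transcription factor of the secretory pathway, stood at 56.5 and 24.5 CPM (1.20, and 1.67 without mixed barcodes). Few cells held them, the Klrh1 UMIs lying in 40 Lcn2-ko and 19 wt members. Tgfbi (1.44), Rsad2 (1.30) and Fabp5 (1.13) were also past 2-fold, but stood at -0.06, 0.13 and 0.52 without mixed barcodes.

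Just short of 2-fold, Chst12, a chondroitin sulfotransferase gene, stood at 101 CPM in Lcn2-ko members and 50.3 CPM in wt members (log2 ratio 1.00, 0.63 to 1.38). Irf8, a transcription factor that activated CD8 T cells also use, stood at 361 and 199 CPM (0.86, 0.67 to 1.05). Plac8 stood at 608 and 337 CPM (0.85, 0.71 to 1.00). Pdcd1 stood at 455 and 272 CPM (0.75, 0.58 to 0.91), and was detected in 54.0% of Lcn2-ko members and 37.4% of wt members, or 28.2% and 20.8% of cells thinned to 1000 UMIs, against 0.93% and 1.95% of C1q macrophages. Granzyme-low cells differed in the same direction, with Pdcd1 at 392 CPM in the Lcn2-ko library and 259.7 CPM in the wt library.

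Several heat shock genes were lower in Lcn2-ko members, with and without mixed barcodes. Hspa1b, an inducible heat shock protein 70 gene, stood at 261 CPM in Lcn2-ko members and 1068 CPM in wt members, a log2 ratio of -2.03 (-2.17 to -1.89), and -2.17 without mixed barcodes. Hspa1a, its neighbour, stood at 276 and 1006 CPM (-1.87), and the co-chaperone genes Hsph1 and Dnajb1 at 147 and 328 CPM (-1.16) and at 179 and 352 CPM (-0.98). Hsph1 and Dnajb1 stood at 0.06 and 0.31 when cycling members were left out, which left 37 and 48 members. Of the heat shock and stress list, 5 of 16 genes were at least 1.5-fold lower and 0 higher (median -0.34). The same direction was seen outside the members. Hspa1b stood at 348 CPM in Lcn2-ko and 1285 CPM in wt granzyme-low cells, at 336 and 1173 CPM in NK cells, and at 355 and 1091 CPM in C1q macrophages. Handling of the 2 libraries cannot be told apart from genotype.

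Id3, a regulator of memory-type T cells, had 45 UMIs in Lcn2-ko members and 97 in wt members (-1.57, and -1.24 without mixed barcodes). Cenpf, a mitotic kinetochore gene, stood at 28.0 and 64.4 CPM (-1.20), and the interferon-induced Ifit3 at 27.1 and 56.4 CPM (-1.06). Mast cell protease genes were the lowest of all, with Cpa3 at 1.33 and 135 CPM (-6.67). Cpa3 had 3 Lcn2-ko and 7 wt UMIs outside mixed barcodes, a log2 ratio of -1.69 (-4.28 to 0.44), so this difference rested on few wt barcodes that also held mast cell transcripts.

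By list, the cytotoxic granule genes had 5 of 19 higher and 0 lower in Lcn2-ko members (median log2 ratio 0.22), of which Gzmf, Gzmc and Prf1 are rule genes, and Gzme (88.1 and 58.2 CPM, 0.60) and Serpinb9 (554 and 360.4 CPM, 0.62) are not. Inhibitory receptors had 4 of 14 higher and 2 lower (median -0.25). The higher were Pdcd1, Havcr2 (147 and 88.3 CPM, 0.73), Lag3 (84.5 and 55.2 CPM, 0.62) and Pdcd1lg2 (44.5 and 23.3 CPM, 0.93), and the lower Cd160 (53.8 and 90.7 CPM, -0.75) and Tigit (13.8 and 23.9 CPM, -0.79). Inhibitory receptors thus did not share a direction. Costimulatory receptors had 3 of 13 higher, Icos (728 and 454 CPM, 0.68), Tnfrsf9 (709 and 462 CPM, 0.62) and Tnfsf11 (45.8 and 25.7 CPM, 0.83), and 2 lower, 1 of them Cd226 (60.0 and 112 CPM, -0.89).

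Of the chemokines 1 of 7 was higher and 3 lower (median -0.53, and -0.29 without mixed barcodes). The lower were Ccl3 (109.8 and 170.4 CPM, -0.63), Ccl4 (380.2 and 624 CPM, -0.71) and Xcl1 (399.8 and 655 CPM, -0.71), which T cells secrete on activation, and the higher was Cxcl9, at 1.27 and 0.45 with and without mixed barcodes. The death ligand and cytokine list had 0 of 7 higher and 2 lower, Fasl (52.9 and 82.1 CPM, -0.63) and Tnfsf10 (54.7 and 85.8 CPM, -0.65), while Ifng, at 141 and 152 CPM, had a log2 ratio of -0.11 (-0.35 to 0.14), under which Xist-only and Y-only members lay on opposite sides of 0 (1.23 and -0.67). Of exhaustion regulators 0 of 13 were higher and 2 lower, among them Eomes at 35.1 and 61.3 CPM (-0.80). Tissue residence genes had 0 of 10 higher and 1 lower. Itgae, at 166 and 246 CPM (-0.57), fell just short of the 1.5-fold limit. The lists of effector transcription factors (11 genes) and the interferon gamma response (16 genes) had 0 genes past 1.5-fold in either direction.

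Smaller counts came from the other lists. Naive, memory and stem-like genes had 1 of 13 higher and 3 lower, NK receptors 2 of 15 and 1, cytokine receptors 2 of 14 and 1, the type I interferon response 1 of 11 and 2, and the cell cycle 1 of 19 and 1. Trafficking receptors had 0 of 10 higher and 1 lower, T cell receptor signalling 0 of 19 and 1, glycolysis and hypoxia 1 of 19 and 0, and the iron and Lcn2 list 1 of 7 and 0. Il2ra, the interleukin 2 receptor alpha chain, was at 124 CPM in Lcn2-ko members and 72.3 CPM in wt members (0.78), and Klf2, a factor that keeps T cells in circulation, at 136 and 211 CPM (-0.64).

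**Figure D4:**
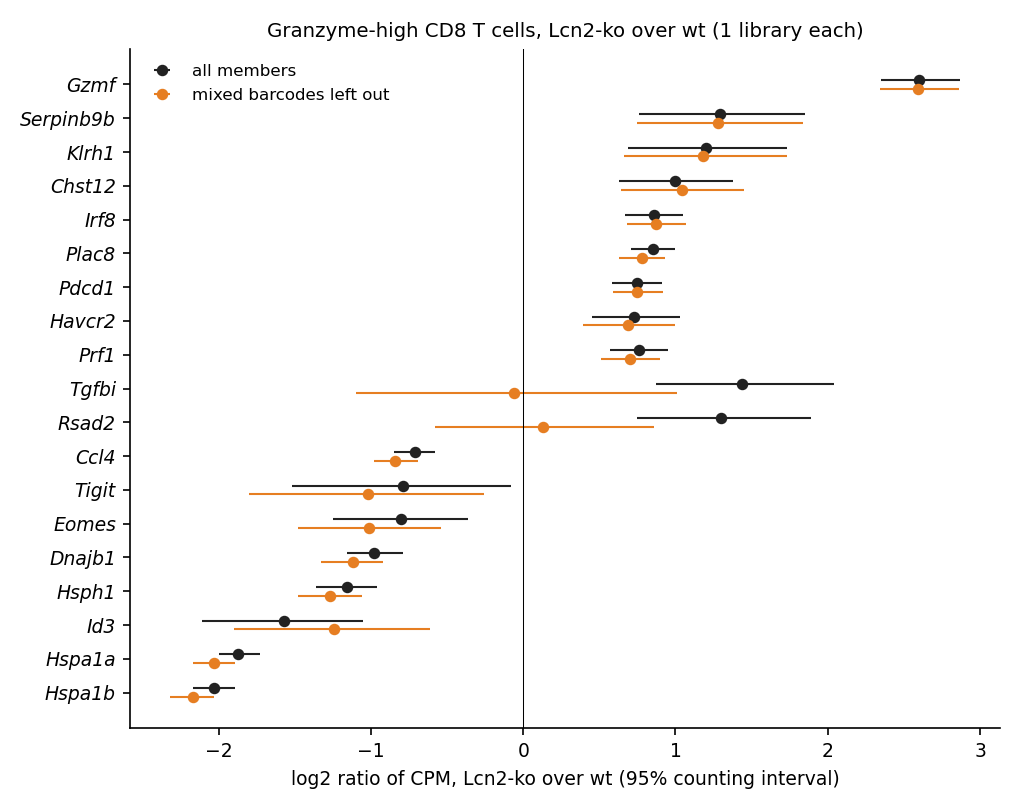
Log2 ratio of CPM, Lcn2-ko over wt, in granzyme-high CD8 T cells for 19 genes, with 95% counting intervals and 1 library per genotype, over all members (black) and with mixed barcodes left out (orange). Gzmf lies at 2.60 and Hspa1b at -2.03, while Tgfbi and Rsad2 lie near 0 without mixed barcodes.

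In chimeras of male marrow and female hosts, Xist transcripts come from host cells and Y-linked transcripts from donor cells, and they were used to ask which members carried either. Cells with Xist and none of Ddx3y, Eif2s3y, Kdm5d and Uty are called Xist-only, and cells with the reverse Y-only. Xist-only cells were 108 of 550 Lcn2-ko members (19.6%) and 51 of 433 wt members (11.8%), a difference of 7.86 points (3.27 to 12.3). Y-only cells were 197 (35.8%) and 181 (41.8%). Both kinds were found in 21 and 6 members and neither in 224 and 195. Thinned to 1000 UMIs, Xist-only cells were 10.0% and 7.41%, a difference of 2.61 points (-1.02 to 6.11), an interval that includes 0. Granzyme-low cells had 15.5% and 10.2% Xist-only. MB49 was derived from a male mouse, so Y-linked UMIs of free tumour RNA cannot be told apart from those of donor cells. Whether Xist UMIs of Xist-only cells came from free RNA of host cells was not tested either.

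Pdcd1, Gzmf, Ifng, Prf1 and Havcr2 were detected in more Xist-only than Y-only members of the Lcn2-ko library, but their lists as a whole were mixed. Of inhibitory receptors 2 of 12 were past 1.5-fold higher and 4 lower (median log2 ratio -0.09), and of cytotoxic granule genes 3 of 19 and 3, with Gzma in 19.4% of Xist-only and 31.5% of Y-only members. Pdcd1 was detected in 78.7% of Xist-only and 46.7% of Y-only Lcn2-ko members, a difference of 32.0 points (20.9 to 41.6), and in 39.8% and 24.4% of cells thinned to 1000 UMIs. In wt members the shares were 37.3% and 38.7% (-1.42 points, -15.4 to 13.9). Gzmf was detected in 25.9% of Xist-only and 9.14% of Y-only Lcn2-ko members, and in 1 of 51 and 5.52% of wt members. Of the 74 Lcn2-ko members with Gzmf, 28 (37.8%) were Xist-only, and of the 18 wt members with Gzmf 1 was. The groups had median depths of 4015.5 (Xist-only) and 3416 (Y-only) UMIs in the Lcn2-ko library and 3214 and 3556 in the wt library.

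Ifng, the main cytokine of cytotoxic T cells, was detected in 44.4% of Xist-only and 19.8% of Y-only Lcn2-ko members, and in 33.3% and 28.2% of wt members. Prf1 was detected in 64.8% and 39.6% of Lcn2-ko members and 25.5% and 36.5% of wt members, and Havcr2 in 53.7% and 26.9% and in 13.7% and 27.6%. Prf1 and Havcr2 thus lay in opposite directions in the 2 libraries. For Prf1 and Ifng in wt members the intervals of the difference included 0, as did that of Gzmf (-8.20 to 5.15 points). Thinned to 1000 UMIs, Ifng was in 15.7% of Xist-only and 7.11% of Y-only Lcn2-ko members and 9.80% and 12.7% of wt members, Prf1 in 32.4% and 15.2%, and 7.84% and 14.4%, and Havcr2 in 20.4% and 8.63% of Lcn2-ko members and 1 of 51 and 11.6% of wt members. The reverse held for Itgae in the Lcn2-ko library, where it was detected in 9.26% of Xist-only and 37.1% of Y-only members (-27.8 points, -35.9 to -18.3). In wt members Itgae was in 41.2% and 32.0% (9.13 points, -5.18 to 24.2), an interval that includes 0. Cd7 was detected in fewer Xist-only members in both libraries, at 13% and 38.1% in the Lcn2-ko library and 25.5% and 38.1% in the wt library. The wt interval of the Cd7 difference (-24.9 to 2.36 points) includes 0, though not when thinned (-28.4 to -6.73). Tox was detected in 22.2% and 32.0% of Lcn2-ko members and in 5.88% and 39.8% of wt members (-33.9 points in wt, -42.1 to -21.7). Thinned, Itgae was in 2.78% and 20.8% of Lcn2-ko and 25.5% and 16.6% of wt members, Cd7 in 4.63% and 27.4%, and 9.80% and 29.3%, and Tox in 6.48% and 14.2%, and 0 of 51 (which allows a share of cells with a UMI of up to 5.88%) and 11%. Whether these differences vary with genotype was not tested.

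**Figure D5:**
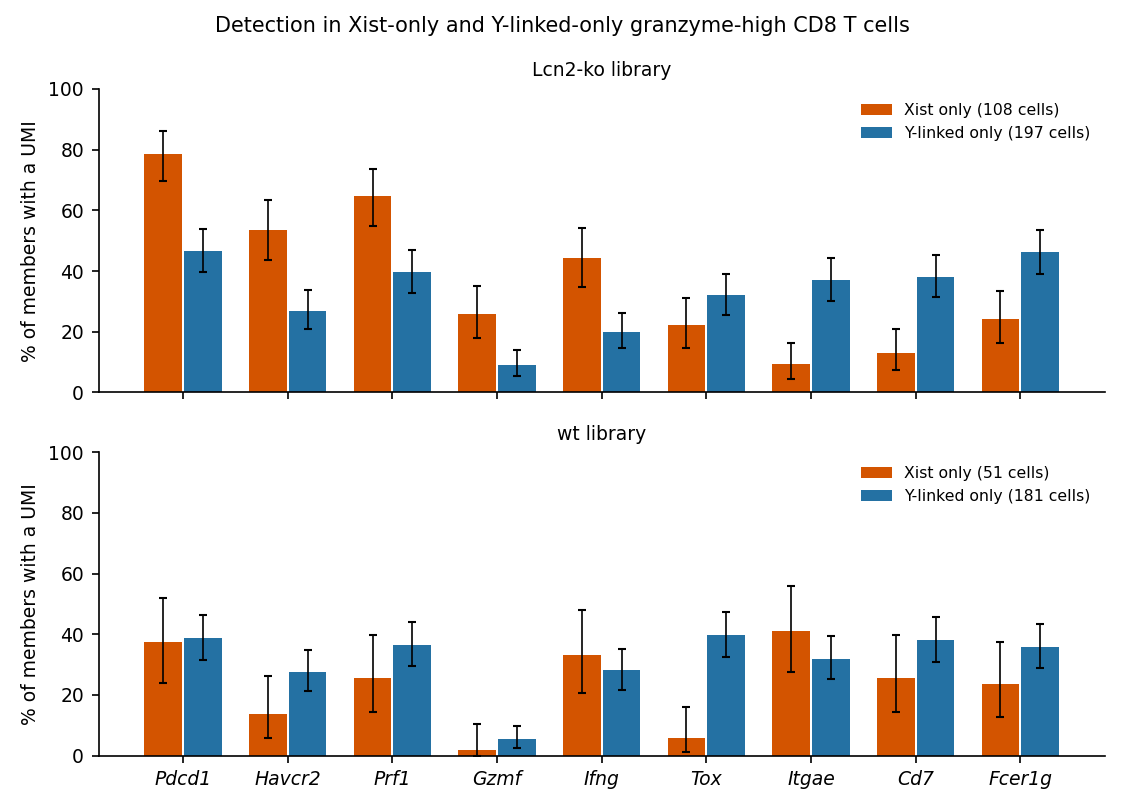
Share of members (percent, 0 to 100) with a UMI of 9 genes in Xist-only (orange) and Y-only (blue) granzyme-high CD8 T cells, 108 and 197 cells in the library labelled Lcn2-ko (top) and 51 and 181 in the wt library (bottom), with exact 95% counting intervals. Pdcd1 is at 78.7% and 46.7% in the Lcn2-ko library and 37.3% and 38.7% in the wt library, and Itgae is low in Xist-only Lcn2-ko members (9.26%).

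Across genes, 36 of 3507 (1.03%) were past 2-fold higher and 108 (3.08%) lower in Xist-only than in Y-only Lcn2-ko members, and 64 of 3166 (2.02%) and 155 (4.9%) in wt members. Without mixed barcodes, which were 3 of 108 and 15 of 197 in the Lcn2-ko library and 2 of 51 and 15 of 181 in the wt library, 32 were higher and 66 lower in the Lcn2-ko library and 35 and 79 in the wt library. With 1.5-fold, 572 of 6344 genes (9.02%) were higher and 892 (14.1%) lower in the Lcn2-ko library, and 761 of 5979 (12.7%) and 1227 (20.5%) in the wt library. The counts of the lists are set beside these shares.

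Cx3cr1, a chemokine receptor of effector cells, stood at 96.3 CPM in Xist-only and 23.9 CPM in Y-only Lcn2-ko members (log2 ratio 2.01, 1.23 to 2.84). Cd7 stood at 82.3 and 655 CPM (-2.99), and Klra7, a Ly49 receptor gene, at 0 and 110.0 CPM, at least 4.19 log2 units lower with the zero set at 3 UMIs. Tissue residence genes had 5 of 10 lower and 0 higher in the Lcn2-ko library (median -0.65), among them Itga1 at 66.2 and 139.8 CPM, Itgb7 at 64.2 and 191 CPM and Cd69 at 225 and 417 CPM. In the wt library 3 of 10 were higher and 0 lower (0.23, and 0.03 without mixed barcodes), with Itgae at 329 and 189 CPM.

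Type I interferon genes had 7 of 11 lower and 0 higher in Xist-only Lcn2-ko members (median -0.84, and -0.80 without mixed barcodes), with Ifit3 at 4.01 and 37.1 CPM from 2 and 31 UMIs. In wt members 1 of 11 was higher and 2 lower (median -0.22, but 0.08 without mixed barcodes). The interferon gamma response had 6 of 16 lower and 0 higher in the Lcn2-ko library (-0.39) and 1 higher and 0 lower in the wt library (0.22). Chemokines had 7 of 7 lower in the Lcn2-ko library (median -0.83, and -0.33 without mixed barcodes), with Ccl5 at 1479 and 2633 CPM and Xcl1 at 251 and 559 CPM, and 2 of 6 higher and 2 lower in the wt library. Naive, memory and stem-like genes had 2 of 11 higher and 3 lower in the Lcn2-ko library, and 5 of 11 higher and 0 lower in the wt library, where Ly6c2, a marker of memory and effector CD8 T cells, stood at 1154 and 472 CPM.

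In wt members Gzma stood at 3365 CPM in Xist-only and 817 CPM in Y-only cells (log2 ratio 2.04, 1.88 to 2.20), while Gzmd had 1 UMI in Xist-only cells and 131 in Y-only cells (log2 ratio -5.0, -10.31 to -2.49) and Gzmf 2 and 109. Gzmb was near equal, at 3225 and 2889 CPM in wt members and 3613 and 3591 CPM in Lcn2-ko members. Gzma was near equal in Lcn2-ko members, at 1975 and 2151 CPM.

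Several library differences in the members were unequal between Xist-only and Y-only cells. Gzmf had a log2 ratio, Lcn2-ko over wt, of 5.95 within Xist-only members (333 and 2 UMIs) and 1.19 within Y-only members. Serpinb9b had 60 and 1 UMIs in Xist-only members (4.48, 1.95 to 9.81) and a ratio of -0.32 (-1.22 to 0.56) in Y-only members. Klrh1 had 57 and 0 UMIs in Xist-only members, at least 2.82 log2 units higher with the zero set at 3 UMIs, and a ratio of -0.23 (-1.02 to 0.54) in Y-only members. Havcr2 had ratios of 2.22 (1.25 to 3.39) and -0.02 (-0.47 to 0.44), Ifng of 1.23 (0.58 to 1.95) and -0.67 (-1.12 to -0.23), Prf1 of 2.02 and 0.40, and Itgae of -3.11 and 0.17. Within Y-only members the intervals of Serpinb9b, Klrh1, Havcr2 and Itgae (-0.16 to 0.49) include 0, so no direction is given for them there.

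Other genes had ratios of 1 sign in both, though the Xist-only interval of Chst12 (-0.18 to 2.24) includes 0. Pdcd1 had ratios of 1.08 in Xist-only and 0.68 in Y-only members, Chst12 of 0.93 and 1.27, Hspa1b of -3.33 (-3.75 to -2.93) and -2.25 (-2.49 to -2.02), Hspa1a of -2.28 and -1.99, and Hsph1 of -1.40 and -1.17. By share of cells, Pdcd1 stood further apart in Xist-only members (78.7% and 37.3%) than in Y-only members (46.7% and 38.7%), and whether any of these ratios differ between Xist-only and Y-only members was not tested. Gzmb had 0.16 and 0.31. The wt Xist-only group was 51 cells with 185436 UMIs in all, so the Xist-only ratios rest on few cells, and cells with neither kind of transcript, 224 and 195 members, are in neither group.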

How the data were processed

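The deposited matrices held raw UMI counts, which the authors had not normalized, for 31253 genes in 2 libraries (7788 barcodes labelled Lcn2-ko and 7974 labelled wt, with 40959725 and 42069099 UMIs). The submitters' processing notes name Cell Ranger and mm10, and give no version. Groups came from the genotype label. The libraries shared 4 barcodes, 0 of them among the members.

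Cells were chosen by the rule given above, with limits of 200 genes and 20% mitochondrial UMIs. Doublets were not removed in the values reported; mixed barcodes, and the 4% of cells with the highest Scrublet scores (312 and 319 cells), were left out as alternatives. UMIs were summed per class and scaled to CPM. Shares have Clopper-Pearson intervals, differences of shares Newcombe intervals, and log2 ratios exact conditional binomial intervals, all at 95%; a count of 0 was set at 3 counts. No test was run, since each genotype was 1 library. Counts of genes past 2-fold leave out rule genes, Lcn2, predicted genes and those of globins, receptor segments, ribosomal proteins, mitochondria and the sex chromosome markers. The members and the 19 gene lists and 14 marker lists were chosen with earlier results of these data known. Named genes were the rule genes, the series' markers, the 12 highest and 12 lowest in each comparison (at least 50 CPM in either class and 50 UMIs over both), and up to 4 per list. Genes ranked without mixed barcodes or between Xist-only and Y-only cells were chosen after their values were seen. Further genes, such as Slamf6, Lag3 and Itga1, were added outside these limits. Apart from Gzmk, these added genes were not tried under the alternatives for named genes. On simulated counts with known changes the ratio step was checked. These counts were drawn with counting error alone, as the intervals assume, so the check does not cover spread between cells. Python 3.11.15, numpy 2.4.6, scipy 1.17.1, pandas 2.3.3, scanpy 1.11.5 and matplotlib 3.10.9 were used. Promoter sequences came from RefSeq (GRCm38.p6) and gene positions from GENCODE on mm10.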

Additional observations from a re-analysis of the deposited data

Results flagged for a closer look

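With mixed barcodes left out, Mt2, a metallothionein gene, had a log2 ratio of Xist-only over Y-only members of 1.41 in the library labelled Lcn2-ko and -1.68 in the wt library. Nrgn, which encodes a calmodulin-binding protein, had ratios of 1.23 and -1.86. Both drew attention because the counting intervals lay on opposite sides of 0 in the 2 libraries. The difference between the libraries was not tested, since each was 1 library, and the wt ratio of Mt2 rested on 6 UMIs in Xist-only cells and 72 in Y-only cells.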

How the results depend on the processing

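Of the 130 alternative values tried for shares and for counts of genes past 2-fold, 75 were close to those reported and 55 moved. For gene counts, close refers to the number of genes and not to which genes they were. For Lcn2-ko over wt, thinning gave 17 lower genes, 3 of them among those reported, and 15 higher genes, 0 of them among those reported. Limits of 500 genes and 10% mitochondrial UMIs gave 6 higher and 17 lower genes, all among those reported. For the Lcn2-ko over wt ratio, 207 named genes were tried under 13 alternatives. Changes of sign were counted only for genes whose reported ratio was at least 1.5-fold with an interval off 0. These were 17 values of 13 genes, and the cause was not tested. Sign changes of other named genes are not counted. Of the remaining values, 1970 lay within the counting interval of the reported ratio and 495 outside it. No replicate could be left out and no paired analysis was possible because each genotype was 1 library. Counting depth limits the ratios of genes with few UMIs.

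The share of members among CD8 T cells was 30.6% (Lcn2-ko) and 31.2% (wt) with at least 6 granzyme and perforin UMIs, 27.6% and 26.2% with cells thinned to 1000 UMIs, and 39.7% and 37.3% (2.38 points) with a Cd8b1 UMI and no gamma delta or Ncr1 UMI, under which the wt Xist-only share was 16.7%. Thinned, with the rule applied again, Xist-only shares were 9.29% and 8.25% (1.04 points).

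For Lcn2-ko over wt (6 genes higher, 18 lower), the limit of 6 UMIs gave 39 lower, thinning 15 higher, leaving out cells with any of 8 markers of other types 12 higher, the Cd8b1 limit 37 higher and 72 lower, the mean of per-cell CPM 2 higher, a total without granzyme, ribosomal and mitochondrial genes 12 higher, Y-only members 26 and 55, no cycling members 6 lower, limits of 100 CPM and UMIs 1 and 9, and of 20 CPM and UMIs 35 and 64.

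For members over granzyme-low cells in the Lcn2-ko library (14 higher, 122 lower), lower genes numbered 53 with thinning, 20 without the 8 markers, 6 without mixed barcodes and 32 by the mean of per-cell CPM. No cycling members gave 304 and 517, no mitotic members 25 higher, 100 CPM 6 and 62, and 20 CPM 29 and 301. In the wt library (17 and 46), lower genes numbered 75 without high Scrublet scores, 15 without the 8 markers, 12 without mixed barcodes and 26 by the mean of per-cell CPM. No cycling members gave 235 and 449, no mitotic members 26 and 116, 100 CPM 9 and 21, and 20 CPM 43 and 143. The cycling limit, 2 UMIs of the cell cycle list, left 37 and 48 members.

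For Xist-only over Y-only members, leaving out mixed barcodes gave 66 lower in the Lcn2-ko library (108 reported) and 35 higher and 79 lower in the wt library (64 and 155). Members with Pdcd1 alone gave 17 and 49 in the Lcn2-ko library and 39 and 66 in the wt library. Leaving out mixed barcodes, mitotic members and members without Pdcd1 was chosen after seeing the data.

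Listed here are the sign changes of genes whose reported log2 ratio was at least 1.5-fold with an interval off 0. With thinning they were Bnip3 (-0.19), Cxcl2 (0.72) and Irf4 (0.36), and without mixed barcodes Cma1 (1.19) and Tgfbi (-0.06). Without the 8 markers it was Cxcl2 (0.21), and without cycling members Cxcl2 (2.29), Dnajb1 (0.31) and Hsph1 (0.06). In Y-only members they were Cxcl2 (0.06), Cxcr3 (0.22), Havcr2 (-0.02), Irf4 (0.08), Klrh1 (-0.23) and Serpinb9b (-0.32), and with at least 6 UMIs Mgp (-0.06) and Rsad2 (-0.19).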
